A study of Homo sapiens with 6 samples.

Results

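The genes described are 10 immediate early genes: FOS, FOSB, FOSL1 and FOSL2 of the FOS family, JUN, JUNB and JUND of the JUN family, the zinc finger factors EGR1 and EGR2, and IER2. They were taken from the counts table by gene symbol, and each symbol matched 1 of the 60664 genes in the table. Poly-A RNA was sequenced from the H7 line, which is an established line of human embryonic stem cells kept on Matrigel in mTeSR Plus, in 3 libraries of genotype control and 3 of genotype SAMD4A knockdown. SAMD4A encodes a Smaug-type protein that binds RNA, and the series asks how it bears on self-renewal and lineage choice. The sources used here do not give what the control cells received, the knockdown construct, or whether the knockdown cells are 1 clone.

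Immediate early genes are switched on within minutes of a signal, without new protein synthesis, and their messages are short-lived. FOS and JUN proteins carry a basic leucine zipper and pair to form the AP-1 transcription factor. JUN proteins can pair among themselves, while FOS proteins need a JUN partner. In the textbook pathway, growth factors such as FGF act through the MAP kinase ERK, which phosphorylates the ternary complex factors ELK1, ELK3 and ELK4; these sit with serum response factor, SRF, on CArG boxes in the promoters of FOS and EGR1. A second input runs through CREB at cAMP response elements, and JUN maintains its own promoter through an AP-1-like site.

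Of the 10 genes, 9 had promoter windows in the RefSeq table (GRCh38.p14), each covering 250 bases before to 50 after an annotated start. EGR2 had 3 such windows, so the 9 genes gave 11 in all. The promoters shown are those of the EGR genes, which changed most, of FOS and JUN, which give the families their names, and of JUND, the most abundant AP-1 message, which did not pass the test. Capitals mark matches to the CArG box, the cAMP response element TGACGTCA or its core TGACG, the AP-1 site TGANTCA, the ATF-type AP-1 site TGACATCA and the TATA box TATAAA, on either strand.
EGR1, chr5:138465229-138465528, plus strand: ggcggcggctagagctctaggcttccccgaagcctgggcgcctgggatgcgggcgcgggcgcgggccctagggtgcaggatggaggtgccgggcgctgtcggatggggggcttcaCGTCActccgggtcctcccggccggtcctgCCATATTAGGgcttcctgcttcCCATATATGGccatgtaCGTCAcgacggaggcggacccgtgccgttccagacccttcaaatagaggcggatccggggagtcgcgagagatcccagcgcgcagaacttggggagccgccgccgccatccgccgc
EGR2, chr10:62816317-62816616, minus strand: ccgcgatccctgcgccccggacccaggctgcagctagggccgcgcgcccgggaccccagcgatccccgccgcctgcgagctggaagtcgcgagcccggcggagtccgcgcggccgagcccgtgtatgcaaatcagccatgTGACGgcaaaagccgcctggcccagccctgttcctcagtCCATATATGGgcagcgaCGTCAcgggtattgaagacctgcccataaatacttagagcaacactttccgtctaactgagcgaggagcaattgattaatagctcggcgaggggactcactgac
FOS, chr14:75278578-75278877, plus strand: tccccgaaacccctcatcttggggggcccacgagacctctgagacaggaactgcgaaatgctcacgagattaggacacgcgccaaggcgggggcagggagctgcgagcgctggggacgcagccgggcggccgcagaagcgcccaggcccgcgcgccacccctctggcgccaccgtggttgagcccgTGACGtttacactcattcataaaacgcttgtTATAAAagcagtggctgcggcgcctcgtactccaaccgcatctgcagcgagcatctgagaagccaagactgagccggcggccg
JUN, chr1:58783998-58784297, minus strand: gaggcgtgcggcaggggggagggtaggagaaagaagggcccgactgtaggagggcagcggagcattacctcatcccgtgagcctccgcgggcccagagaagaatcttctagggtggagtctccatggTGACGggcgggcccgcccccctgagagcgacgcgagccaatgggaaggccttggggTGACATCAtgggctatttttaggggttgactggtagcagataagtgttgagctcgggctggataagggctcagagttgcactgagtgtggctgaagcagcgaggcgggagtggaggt
JUND, chr19:18281573-18281872, minus strand: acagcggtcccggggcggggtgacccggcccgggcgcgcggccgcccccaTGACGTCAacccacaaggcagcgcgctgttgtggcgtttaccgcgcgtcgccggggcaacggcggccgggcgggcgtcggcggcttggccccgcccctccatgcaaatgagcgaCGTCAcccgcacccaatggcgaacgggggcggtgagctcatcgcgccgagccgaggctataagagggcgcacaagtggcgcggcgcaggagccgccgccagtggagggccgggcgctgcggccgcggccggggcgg

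CArG boxes were found in 2 of the 9 genes, EGR1 and EGR2, and in 1.29% of all 35116 windows of the table. EGR1 held CCATATTAGG at -105 to -96 and CCATATATGG at -83 to -74, counted in bases from the start site. EGR2 held CCATATATGG at -71 to -62, in the window of its most downstream start. The core TGACG occurred in at least 1 window of all 9 genes, against 24.6% of all windows, and overlaps every full cAMP response element. In EGR1 and IER2 it was found only on the reverse strand. The full cAMP response element was found only in JUND, at -200 to -193 (1.85% of all windows), TGANTCA only in FOSL2, at 5 to 11 (7.71%), and TGACATCA only in JUN, at -67 to -60 (2.61%). FOS, FOSB and JUNB held a TATA box, in each case starting 30 to 33 bases before the start site (11.5%). The EGR consensus site was in 0 of the 9 (0.795%). A match is a run of letters, the lack of one says only that the letters are not in this window, and protein binding was not measured.

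**Figure D1:**
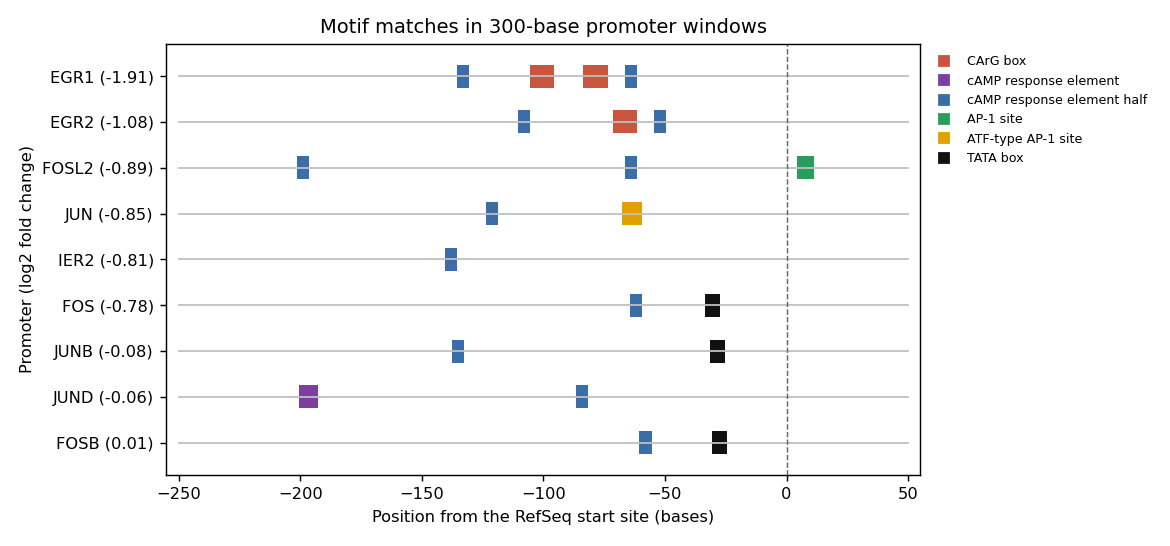
Motif matches along the promoter window of each gene, in bases from the RefSeq start site, with the log2 fold change of the gene beside its name; for EGR2 the window with the CArG box is drawn. CArG boxes appear only in EGR1 and EGR2, at -1.91 and -1.08, and the core TGACG appears in every row drawn, alone or within the full element of JUND.

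Library totals ran from 19270688 to 21355171 counts. SAMD4A itself was at 52.2, 56.0 and 49.8 CPM in control replicates 1 to 3 and at 27.4, 28.5 and 28.5 CPM in knockdown replicates 1 to 3 (CPM, counts per 1e+06 library counts after TMM scaling). The pluripotency markers were present throughout, with a summed level over the 8 genes of 5980 to 6110 CPM in control and 6110 to 6620 CPM in knockdown (4 called higher and 1 lower, with 26.1% and 25.6% over all genes tested). Knockdown replicate 1 stood apart: its chi-square per degree of freedom against the other knockdown libraries was 7.85 and 6.91, against 3.12 between those. The summed level of 8 neural progenitor markers was 65.9 to 76.0 CPM in control. In knockdown replicates 1 to 3 it was 106, 10.5 and 9.07 CPM. DLK1 alone gave 45 to 52.9 CPM of this sum in control and 75.7, 2.44 and 1.3 CPM in those knockdown libraries. The sum over 8 fibroblast and mesenchyme markers was 357 to 396 CPM in control and 309 to 331 CPM in knockdown. DCN was at 0 in every library. Of 8 primitive streak and endoderm markers only 2 were tested, and the sum over all 8 was 4.69 to 4.97 CPM in control and 14.0, 4.83 and 2.92 CPM in the knockdown libraries. That of 8 amnion and trophoblast markers was 16.8 to 22.2 CPM in control and 10.3 to 13.8 CPM in knockdown. Counts of mitochondrial genes made up 3.31 to 3.46% of control libraries and 4.87 to 5.12% of knockdown libraries. The part of these differences in the results was not tested, and in bulk RNA fewer cells using a gene and less RNA per cell cannot be told apart.

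In the knockdown libraries 6 of the 10 genes fell and 0 rose; no rise had an unadjusted p under 0.05, and DESeq2 and limma also called 0. EGR1 fell most, to 26.7% of its control level, EGR2 to 47.2%, and FOSL2, JUN, IER2 and FOS to between 53.9% and 58.3%. FOSB, FOSL1, JUNB and JUND did not pass the test. All 10 passed the low-count filter and were tested. Calls are edgeR quasi-likelihood tests with Benjamini-Hochberg adjusted p below 0.05 over all 17258 genes tested, two-sided. The table was broadly changed: 51.7% of all tested genes were called, 25.6% lower and 26.1% higher. The 60% of the 10 genes called lower stands against that 25.6%. Their median log2 fold change (knockdown over control) was -0.80, against -0.01 over all genes tested. The 10 genes and the related lists were chosen with earlier results of these data known, so such contrasts with all genes are descriptions. A call with a fall of at least 1 on the log2 scale was made for 2 of the 10, EGR1 and EGR2, and for 6.10% of all genes. With scaling by total counts only, the median of all genes was -0.17 and the calls split into 2704 higher and 6410 lower, against 4503 and 4423 with TMM. The 6 falls kept their calls, with a median of the 10 genes of -0.95, and JUND was then called lower as well (-0.22, edgeR adjusted p = 0.0062).

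**Figure D2:**
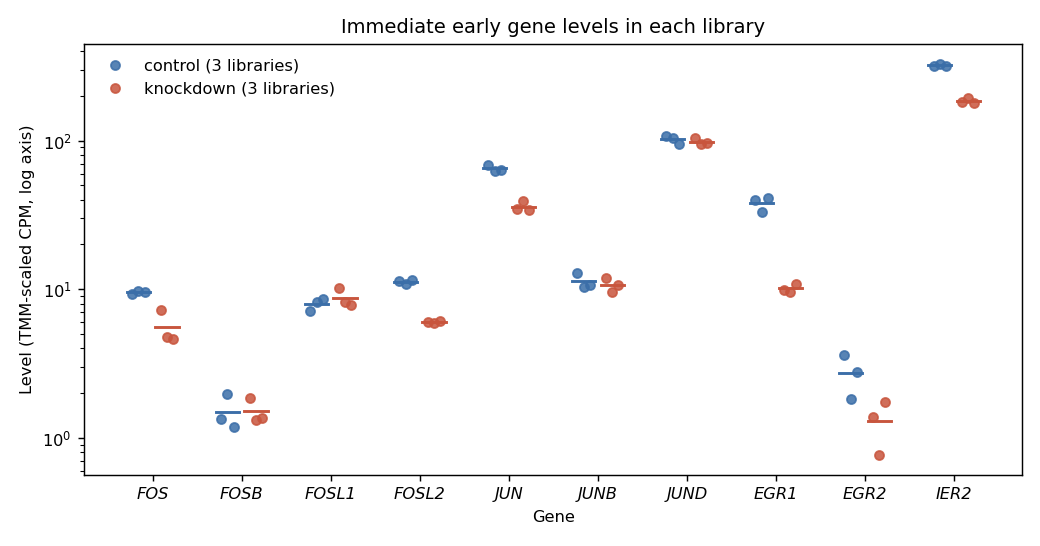
Level of each gene in each library as TMM-scaled CPM on a log axis; points are libraries, short bars are means of 3 libraries. Control and knockdown points are apart for FOS, FOSL2, JUN, EGR1, EGR2 and IER2 and overlap for FOSB, FOSL1, JUNB and JUND.

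EGR1 (ENSG00000120738, chromosome 5, 138465479 to 138469303, plus strand, GRCh38) encodes a zinc finger activator that answers to ERK signalling. Its level was 39.7, 32.9 and 41.1 CPM in the control libraries and 9.91, 9.57 and 10.9 CPM in the knockdown libraries. Every knockdown library was below every control library by a wide gap, and the 3 knockdown libraries were close together. The mean went from 37.9 ± 4.4 to 10.1 ± 0.67 CPM (SD over 3 libraries a group). On the log2 scale that was -1.91 ± 0.10 (SE; edgeR adjusted p = 1.1e-09). In order of log2 fold change this was the 191st lowest of 17258 genes.

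EGR2 (ENSG00000122877, chromosome 10, 62811996 to 62919900, minus strand), a relative of EGR1 known for its roles in hindbrain patterning and Schwann cells, was far less abundant. Its counts were 76, 37 and 59 in the control libraries and 28, 15 and 32 in the knockdown libraries, or 3.61, 1.82 and 2.79 CPM against 1.39, 0.763 and 1.73 CPM. The groups did not overlap, but the highest knockdown library, at 1.73 CPM, was close to the lowest control library, at 1.82 CPM. The log2 fold change was -1.08 ± 0.33 (edgeR adjusted p = 0.012, 95% interval -1.79 to -0.38). Leaving out control replicate 1 (-0.83, edgeR adjusted p = 0.091) or knockdown replicate 2 (-0.81, edgeR adjusted p = 0.059) ended the call. The family members EGR3 and EGR4 were too low to be tested, at 0.51 and 0.34 CPM in control and 0.25 and 0.31 CPM in knockdown.

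Among the FOS genes, FOS and FOSL2 fell and FOSL1 and FOSB did not pass. FOS (ENSG00000170345, chromosome 14, 75278826 to 75282230, plus strand), the founding member, was at 9.32, 9.70 and 9.61 CPM in the control libraries and at 7.22, 4.78 and 4.64 CPM in the knockdown libraries. The control libraries were nearly equal and all above the knockdown libraries, of which replicate 1 was the highest. The log2 fold change was -0.78 ± 0.17 (edgeR adjusted p = 0.0011), and it was -1.01 without knockdown replicate 1 (edgeR adjusted p = 2.4e-07). That library also had the highest sum of neural progenitor markers, most of it from DLK1. The part of that difference in the FOS level was not tested.

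FOSL2, also called FRA2 (ENSG00000075426, chromosome 2, 28392448 to 28417317, plus strand), is a FOS protein without the strong activation domain of FOS. It was at 11.3, 10.8 and 11.5 CPM in the controls and 6.03, 5.95 and 6.10 CPM in the knockdowns. Within each group the libraries were nearly equal, and the groups were far apart, with a log2 change of -0.89 ± 0.12 (edgeR adjusted p = 2.5e-05).

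FOSL1, or FRA1 (ENSG00000175592, chromosome 11, 65892049 to 65900573, minus strand), the other truncated FOS protein, was at 7.08, 8.22 and 8.57 CPM in the controls and 10.2, 8.19 and 7.83 CPM in the knockdowns. The groups overlapped, and the log2 fold change was 0.13 ± 0.14 (edgeR adjusted p = 0.46, 95% interval -0.17 to 0.44). FOSB (ENSG00000125740, chromosome 19, 45467995 to 45475179, plus strand) was the least abundant of the FOS family, with 25 to 40 counts in control and 25 to 37 in knockdown. Its groups overlapped at a log2 change of 0.01 ± 0.31 (edgeR adjusted p = 0.97), and its 95% interval was wide, from -0.65 to 0.68. FOSB lies within the span of ERCC1 on the opposite strand, a gene with a mean of 800 counts in control and 700 in knockdown. The sources used here do not say whether counting used strand, so the FOSB count is uncertain.

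Among the JUN genes, JUN fell and JUNB and JUND did not pass. JUN (ENSG00000177606, chromosome 1, 58776845 to 58784048, minus strand), the main AP-1 activator, was at 68.6, 62.4 and 63.9 CPM in the controls and 34.5, 39.3 and 34.0 CPM in the knockdowns. The groups were well apart, at a log2 change of -0.85 ± 0.07 (edgeR adjusted p = 1.7e-07).

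JUNB (ENSG00000171223, chromosome 19, 12791486 to 12793315, plus strand), which can hold JUN activity in check, was at 12.8, 10.4 and 10.7 CPM in the controls and 11.9, 9.52 and 10.7 CPM in the knockdowns. The groups overlapped and the log2 fold change was -0.08 ± 0.13 (edgeR adjusted p = 0.62, 95% interval -0.36 to 0.19). JUNB lies within the span of HOOK2 on the opposite strand, with mean counts of 1010 and 1100, so its count carries the same uncertainty as that of FOSB.

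JUND (ENSG00000130522, chromosome 19, 18279694 to 18281622, minus strand), the JUN protein that many resting cells keep at a steady level, was at 108, 104 and 94.8 CPM in the controls and 104, 94.3 and 96.4 CPM in the knockdowns. These ranges overlapped, with a log2 change of -0.06 ± 0.06 (edgeR adjusted p = 0.42). Its 95% interval of -0.19 to 0.07 is the narrowest among the 4 genes that did not pass, and does not reach the size of the JUN fall.

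IER2 (ENSG00000160888, chromosome 19, 13150411 to 13154911, plus strand), a short nuclear protein induced together with FOS and JUN, had the highest counts of the 10 genes. It was at 318, 330 and 319 CPM in the controls and 181, 193 and 179 CPM in the knockdowns. Both groups were tight and well apart, with a log2 change of -0.81 ± 0.05 (edgeR adjusted p = 2.0e-09). An unnamed noncoding gene on the opposite strand had a mean of 18 counts in control and 10.7 in knockdown, small beside IER2.

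**Figure D3:**
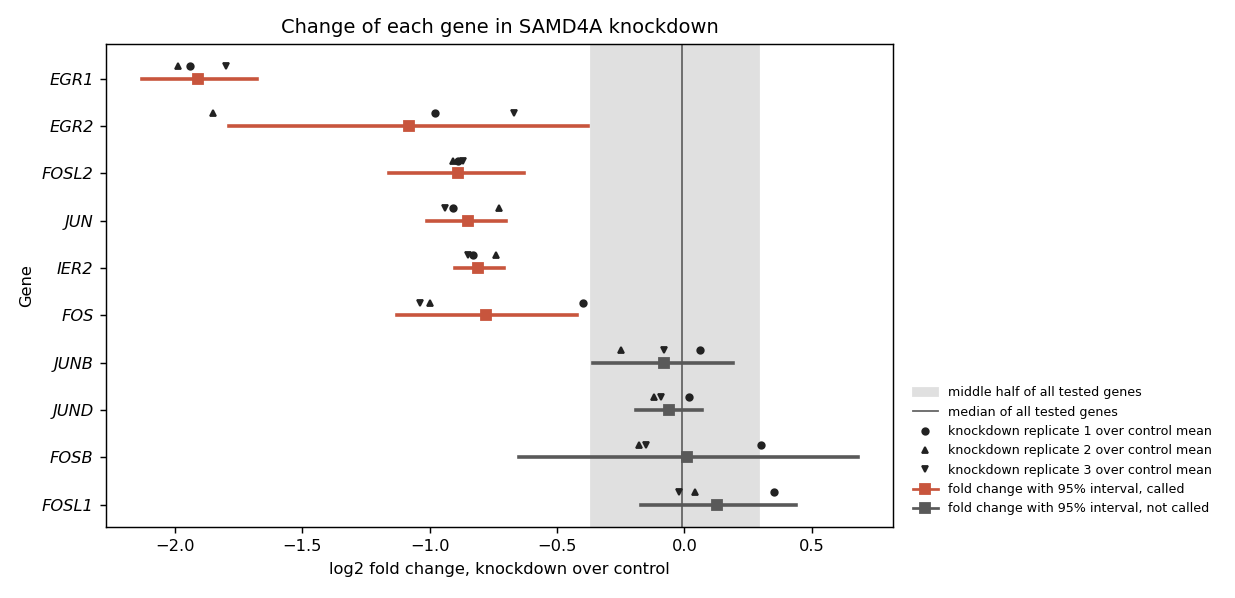
Log2 fold change of each gene, knockdown over control, with its 95% interval from the edgeR fit; small marks are each knockdown library over the control mean, and the grey band and line are the interquartile range and median of all tested genes. FOS knockdown replicate 1 lies at -0.40, away from the other knockdown libraries, which lie at -1.0 and -1.04, while for EGR1 the 3 libraries lie between -1.99 and -1.80.

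The groups did not overlap in the 6 genes that fell, or 60% of the 10, while 29.4% of all tested genes were lower without overlap. The knockdown libraries were similar over the 10 genes as a whole, with a median log2 ratio to the control mean of -0.62, -0.74 and -0.76 in replicates 1 to 3. They differed in single genes. Replicate 1 was the highest of the 3 in FOS (-0.40), FOSB (0.30), FOSL1 (0.35), JUNB (0.06) and JUND (0.02), and replicate 2 the lowest in EGR2 (-1.85). For JUN and IER2 it was replicate 2 that was the highest, at -0.73 and -0.74.

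Levels of different genes were compared per kilobase of deposited exon length. In control, IER2 was the most abundant at 153 ± 3.17 CPM per kilobase, then JUND at 53.1 ± 3.58, JUN at 19.9 ± 0.99, EGR1 at 12.1 ± 1.40 and JUNB at 6.20 ± 0.71. FOSL1 and FOS followed at 4.67 and 4.53 CPM per kilobase, with overlapping ranges, and then FOSL2 at 1.67, EGR2 at 0.92 and FOSB at 0.40. All neighbours in this order except FOSL1 and FOS had ranges that did not overlap. In knockdown EGR1, at 3.22 ± 0.21 CPM per kilobase, stood below JUNB (5.85 ± 0.64) and FOSL1 (5.13 ± 0.74), which it had exceeded in control. Its range overlapped that of FOS (2.64 ± 0.69), and EGR2 and FOSB also overlapped there, at 0.44 and 0.40 CPM per kilobase, as did JUNB and FOSL1.

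The make-up of each family was compared as the share of each gene in the summed level per kilobase. Shares within a family depend on each other, since a fall of some genes raises the share of the rest. The levels of FOSL1 (log2 fold change 0.13) and JUND (-0.06) themselves did not pass the test. FOS made up 40.3% ± 1.3 of the FOS-family level in control libraries and 28.8% ± 2.6 in knockdown libraries (SD over 3 libraries a group). FOSL1 made up 41.4% ± 2.1 in control and 56.7% ± 1.3 in knockdown, and in each knockdown library its share, 55.3 to 57.8%, exceeded that of every control library, 39.2 to 43.3%. FOSL2 went from 14.8% ± 0.96 to 10.1% ± 1.6, and FOSB was at 3.51% ± 0.92 and 4.39% ± 0.16. The exact permutation p over the 6 libraries, two-sided, was 0.1 for FOS, FOSL1 and FOSL2, the smallest that 3 against 3 allows, and 0.3 for FOSB.

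In the JUN family JUN made up 25.2% ± 1.0 in control and 16.3% ± 1.7 in knockdown, and JUND 67.0% ± 1.4 and 75.1% ± 1.0 (exact permutation p = 0.1 for each, the smallest possible). JUNB was at 7.81% ± 0.56 and 8.62% ± 0.68 (exact permutation p = 0.3). The summed JUN-family level was 74.6 to 84.1 CPM per kilobase in control and 66.2 to 70.8 in knockdown, which is 85.5% of control (exact permutation p = 0.1). The summed FOS-family level was 10.6, 11.6 and 11.6 CPM per kilobase in control and 10.8, 8.32 and 8.07 in knockdown. Its groups overlapped through knockdown replicate 1 (exact permutation p = 0.2). EGR1 and EGR2 together went from 13 ± 1.66 to 3.66 ± 0.37 CPM per kilobase, 28.1% of control, with no overlap (exact permutation p = 0.1). EGR1 made up 93.0% ± 1.6 of that sum in control and 88.3% ± 3.5 in knockdown (exact permutation p = 0.2).

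**Figure D4:**
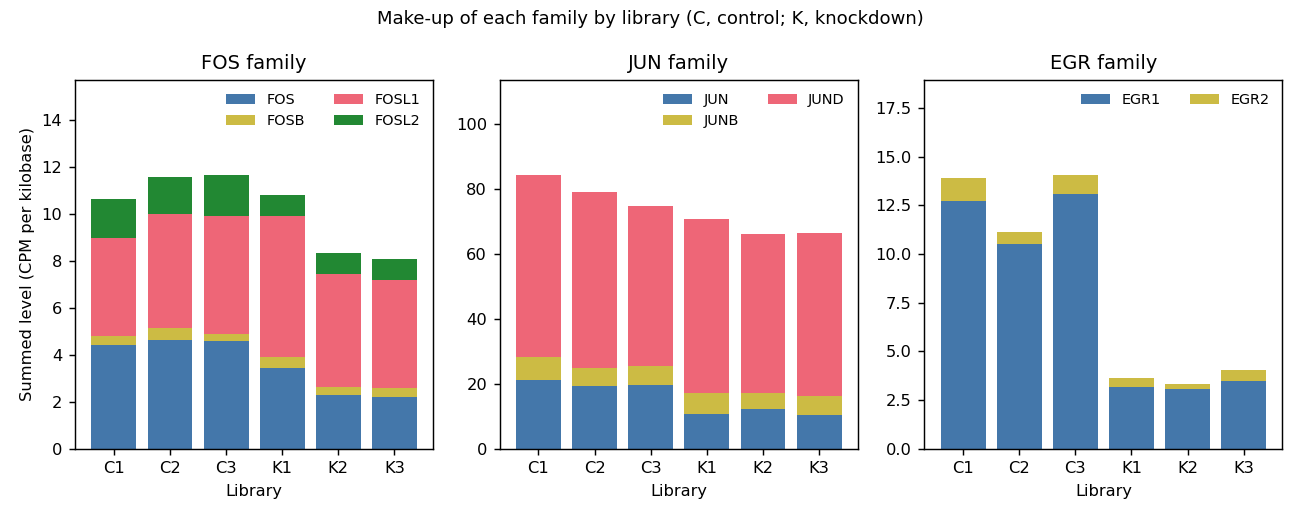
Summed level of the FOS, JUN and EGR families in each library, in CPM per kilobase of exon, stacked by gene (C1 to C3, control; K1 to K3, knockdown). JUND makes up most of the JUN bars in every library, FOSL1 takes a larger share of the FOS bars in knockdown, and the EGR bars are 28.1% of control on average.

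The genes nearest to EGR1 and FOS in profile were found by the distance between log2 CPM values over the 6 libraries, each gene centred on its own mean. Nearest to EGR1 were the noncoding RNA LBX2-AS1, CHAC1, an enzyme that breaks down glutathione, TMEM154, the collagen receptor DDR2, and the chemokine receptor CXCR2, at distances of 0.229 to 0.335. CHAC1, the most abundant of these, went from 232 ± 2.38 to 63.4 ± 2.60 CPM and fell by 1.87 on the log2 scale (edgeR adjusted p = 8.2e-13). Nearest to FOS were THNSL1, ID3, the noncoding RNA LMCD1-AS1, the protease CAPN2 and CCDC113, at 0.107 to 0.176. ID3, an inhibitor of basic helix-loop-helix factors, went from 257 ± 4.47 to 148 ± 31.7 CPM and fell by 0.79 (edgeR adjusted p = 7.9e-06). These genes were selected for their likeness, so their changes are a description.

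Other immediate early genes were mostly lower or not called: of 34 listed, 31 were tested, 16 were called lower and 3 higher, with a median log2 fold change of -0.40. That is 51.6% lower, against 25.6% of all tested genes. ATF3, a stress-induced bZIP factor that pairs with JUN, was at 85.5, 88.5 and 92.7 CPM in the controls and 20.7, 21.6 and 18.9 CPM in the knockdowns, and fell by 2.12 on the log2 scale (edgeR adjusted p = 9.1e-12). KLF10, a TGF-beta-inducible repressor, fell by 1.69 (edgeR adjusted p = 1.7e-11) and GADD45B, a growth arrest and stress gene, by 1.62 (edgeR adjusted p = 3.6e-08). The 3 that rose were IER5 (0.56), IER3 (0.55), which unlike IER2 is an apoptosis regulator, and the kinase gene SGK1 (0.51). The IER3 groups overlapped. Without knockdown replicate 1 the list had 19 lower and 4 higher, against 27.1% lower and 27.2% higher over all genes, and with total counts only 21 lower and 3 higher, against 37.1% and 15.7%.

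Of the other bZIP genes whose proteins can pair with FOS or JUN or compete with them, 18 of 19 listed were tested, and 9 were called lower and 2 higher (median -0.37), against 25.6% lower and 26.1% higher over all genes. The largest falls were those of DDIT3, or CHOP (-2.77 ± 0.15), ATF5 (-2.61 ± 0.12) and BATF3 (-1.75 ± 0.33). DDIT3 and ATF5 are better known as stress-response genes than as AP-1 partners. ATF4, which lies upstream of both in that response, rose by 0.72 ± 0.04. CREB1, at 0.15, lost its narrow call (edgeR adjusted p = 0.049) under 12 of the 14 alternatives, and was at -0.01 with total counts only.

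Genes for the factors that act on these promoters did not move to 1 side. SRF was at 142 CPM in control and 133 CPM in knockdown and did not pass (-0.09 ± 0.05, edgeR adjusted p = 0.15). Over the list of SRF, ternary complex and MRTF activators 4 of 11 were higher and 3 lower, near the 26.1% and 25.6% over all genes. ELK1 was at 0.35 ± 0.07, the CREB coactivator CRTC2 at 0.39 ± 0.08 and CREBBP, the CBP coactivator, at -0.32 ± 0.04. With total counts only the split was 2 and 5, and 15.7% of all genes were then higher and 37.1% lower. The ternary complex factor ELK3 was at -0.28 ± 0.10, a call (edgeR adjusted p = 0.022) lost on leaving out any 1 of 4 libraries. Of 19 MAP kinase cascade genes 7 were higher and 6 lower, beside 26.1% and 25.6% of all genes, and 4 and 8 with total counts only, beside 15.7% and 37.1%. RPS6KA1, a kinase below ERK, was at 0.56 ± 0.06, ARAF at 0.43 ± 0.07, BRAF at -0.51 ± 0.07 and MAP2K5, the kinase above ERK5, at -0.69 ± 0.08. These are message levels, and kinase activity was not measured.

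Short-lived messages such as FOS are cleared through AU-rich elements. Of 10 genes listed for decay and stability factors, not all of which bind such elements, 6 were higher and 2 lower (median 0.18), beside 26.1% and 25.6% of all genes. With total counts only 3 were higher and 3 lower (median 0.03), beside 15.7% and 37.1%. KHSRP, which promotes decay of these messages, was at 0.41 ± 0.04. The decay factors ZFP36 (-0.48 ± 0.12), itself an immediate early gene, and ZFP36L1 (-0.42 ± 0.05) were the lower ones. Among 8 genes for proteins that modify or degrade JUN or coactivate it, 1 was higher and 2 lower, no larger a share than the 26.1% and 25.6% of all genes. The lower ones were the coactivator ligase RNF187 (-0.49 ± 0.06) and the ubiquitin ligase COP1 (-0.36 ± 0.07). With total counts only 0 were higher and 3 lower, beside 15.7% and 37.1% of all genes. ITCH, a JUN ubiquitin ligase, then lost its call (0.25 with TMM, 0.09 with total counts only).

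Genes known as targets in other cells were also counted. Of 10 EGR targets and corepressors 6 were lower and 0 higher (median -0.38), against 25.6% lower and 26.1% higher over all genes. By DESeq2 5 were lower, against 23.2% of all genes. PDGFB, a growth factor, was at 39.6, 40.1 and 40.5 CPM in the controls and 10.5, 7.68 and 8.80 CPM in the knockdowns, with a log2 change of -2.15 ± 0.10 (edgeR adjusted p = 3.3e-10). PDGFA was at 34.4, 35.7 and 40.1 CPM in the controls and 33.6, 14.1 and 16.3 CPM in the knockdowns. Knockdown replicate 1 was thus near the control level, and the fall came from replicates 2 and 3. The log2 change of PDGFA was -0.78 ± 0.21 (edgeR adjusted p = 0.0068), a call that DESeq2 did not make (adjusted p = 0.096). The corepressors NAB1 (0.05) and NAB2 (-0.01) did not pass. Of 16 tested AP-1 targets 7 were lower and 4 higher (median -0.20), with 25.6% lower and 26.1% higher over all genes. VEGFA, the vascular growth factor, fell by 1.74, IL11 by 1.64 and the phosphatase gene DUSP4 by 1.06, while PLAUR (0.90), SPP1 (0.47) and HMOX1 (0.42) rose. MMP1, MMP3, MMP10 and MMP13, collagenase and stromelysin genes often used as AP-1 readouts, were too low to be tested. Whether any of these genes answers to EGR1 or AP-1 in H7 cells was not measured.

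**Figure D5:**
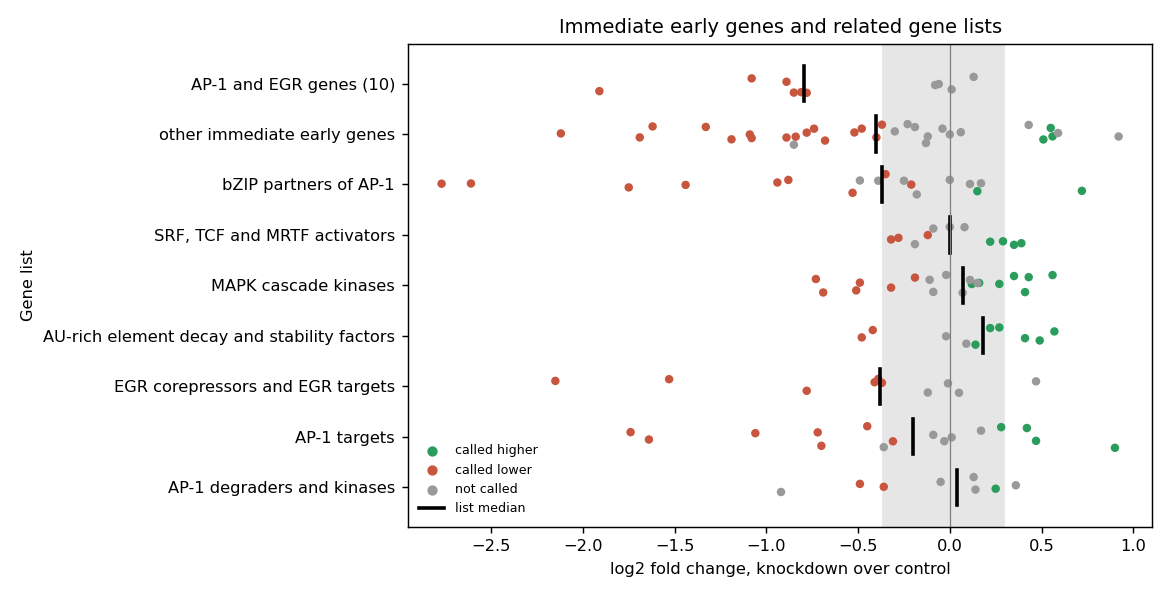
Log2 fold change, knockdown over control, of each tested gene in the 10-gene set and in 8 related lists; colours give the call, thick bars the list medians, and the grey band the interquartile range of all tested genes. Medians of -0.80 and -0.40 mark the set and the other immediate early genes. The EGR targets and corepressors, at -0.38, and the bZIP genes, at -0.37, lie close together. The lists of activators and kinases lie near 0.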

How the data were processed

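Per the submitters' processing notes, HISAT2, HTSeq and GRCh38 were used. The sources used here give no versions, options or strand setting. The deposited table holds the authors' raw counts per gene for 6 libraries, with symbols, exon lengths and locations (GRCh38.p13, per the file headers). Counts of 17258 genes passing filterByExpr were compared in R 4.3.3 with edgeR 4.0.16 (TMM factors, quasi-likelihood test, Benjamini-Hochberg adjustment). Each SE was the log2 fold change divided by the square root of F. DESeq2 1.42.0 and limma 3.58.1 (voom) were alternatives. Nearest profiles used a prior count of 2. On simulated counts with known changes the test recovered most changed genes, and its share of false calls was above the nominal threshold. Far fewer genes were changed there than were called here, so that share need not hold for these data.

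The labels do not say whether replicates were different cultures, so p-values measure only the spread between these libraries, which may be technical. No library repeated another, since chi-square per degree of freedom was at least 2.78 for every pair.

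Named genes were the 10 members, SAMD4A, the nearest 5 profiles of FOS and EGR1, and up to 3 called rises and 3 falls per list at 1 CPM or more. 1 gene given by this rule is not reported here. Other genes (SRF, NAB1, NAB2, EGR3, EGR4, DLK1, DCN, the MMP genes) were named as list members that did not pass or were not tested. Members and lists were chosen with earlier results of these data known; the motif TGACATCA and the list counts under alternatives were added after the data were seen.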

Additional observations from a re-analysis of the deposited data

How the results depend on the processing

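EGR1, FOS, FOSL2, JUN and IER2 kept direction and call under all alternatives in which they were tested. Over the runs leaving out 1 library, log2 fold changes were -2.00 to -1.84 for EGR1, -1.01 to -0.66 for FOS, -0.92 to -0.87 for FOSL2, -0.92 to -0.81 for JUN and -0.83 to -0.78 for IER2. EGR2 ranged from -1.33 to -0.81, and its call was lost without control replicate 1 (-0.83) or knockdown replicate 2 (-0.81); with a mean count of at least 50 required it and FOSB were not tested. Members called lower were 5 to 7 and called higher 0 throughout.

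FOSB, FOSL1 and JUNB, which did not pass, changed sign near 0, and JUND stayed below 0. FOSB was at -0.03 with upper-quartile factors, -0.14 with total counts only and -0.15 to 0.26 over the runs leaving out 1 library. JUNB ranged from -0.16 to 0.02 over those runs. With total counts only FOSL1 was at -0.02, CREB1 at -0.01, and JUND was called at -0.22. The cause was not tested, although total counts only shift all genes by construction.

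Same-numbered libraries of the groups did not deviate together (correlations -0.042 to -0.010), and no library correlated best with its own number. With the replicate block 8434 genes were called in place of 8926, and the 6 falls kept their calls (EGR1 -1.90, EGR2 -1.09, FOS -0.80). Of 51 genes outside the 10 that the naming rule gave, 8 lost a call under at least 1 alternative: CREB1, ELK3, MRTFB, EP300, RPS6KA5, PDGFA, ITCH and LMCD1-AS1. For EGR2 and FOSB, low counts limit precision.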
